A study of Mus musculus with 12 samples.

Results

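The 9 endoplasmic reticulum (ER) chaperone genes described here, Creld2, Manf, Hspa5, Sdf2l1, Pdia4, Dnajb11, Hyou1, Hsp90b1 and Calr, were taken by symbol from the 38924 gene IDs counted in mouse kidney. They are ER chaperones around Creld2 and Manf that had been selected on their measured night rise in Arntl knockout kidneys, so the knockout time difference is given below as a description only. All 9 passed the filter on low counts, among 16150 genes tested. RNA sequencing had been done on whole kidneys of C57BL/6J-background mice to compare loss of BMAL1, the product of the clock gene Arntl, from renal tubule cells with wild-type littermates. Knockout (KO) mice were Bmal1lox/lox/Pax8-rtTA/LC1 animals given doxycycline, which switches on Cre through the tubule-active Pax8 promoter, at 2 mg/ml in drinking water for 2 weeks from 8 weeks of age. The alleles and the doxycycline treatment of the wild-type (WT) littermates are not stated separately. Kidneys were taken at zeitgeber time 16 (ZT16), in the dark, or at ZT4, in the light, from mice kept on 12 h of light and 12 h of dark with chow freely available. The 4 groups were KO ZT16, WT ZT16, KO ZT4 and WT ZT4, with 3 libraries each. Whether each library is a different mouse is not labelled. The p-values therefore describe differences among libraries, part of which may be technical. In a bulk sample, fewer cells of a type and less RNA per cell cannot be told apart.

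The ER folds and modifies proteins that are to be secreted or placed in membranes. When unfolded proteins build up there, the sensors ATF6, IRE1 (encoded by Ern1) and PERK (encoded by Eif2ak3) start the unfolded protein response, which raises chaperones, ER-associated degradation and, through the factor ATF4, amino acid and redox genes. Cleaved ATF6 acts with the factor NF-Y at ER stress response elements (ERSE) in the promoters of many ER chaperone genes, and spliced XBP1 acts at related elements. Kidney tubule cells make large amounts of membrane transporters and, in the thick ascending limb, the secreted protein uromodulin.

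RefSeq promoter windows of GRCm38.p6, running from 250 bases before to 50 bases after a gene's start, were available for 7 of the 9 genes, and not for Manf and Hyou1. The windows were searched on both strands for ERSE (CCAAT, 9 bases of any kind, then CCACG), the shorter ERSE-II (ATTGG, 1 base of any kind, then CCACG), the unfolded protein response element UPRE (TGACGTGG) and the E-box that BMAL1 and CLOCK bind (CACGTG). ERSE was present in 4 of the 7 windows, those of Creld2, Hspa5, Hsp90b1 and Calr, against 39 of all 32851 mouse windows (0.119%). All windows include these 7. ERSE is known from ER chaperone promoters, as stated above, so its presence here is a description and not a test of enrichment. ERSE-II was present in the Dnajb11 window, against 12 of all windows (0.0365%), and the windows of Sdf2l1 and Pdia4 held neither. The UPRE was in none of the 7 windows (0.676% of all) and the E-box in that of Calr alone (7.15% of all). Longer stretches of 3 promoters and short sites of 3 are shown because they carry these elements beside the start of a gene. Capitals mark the fixed letters of the element on either strand, so an element on the opposite strand reads CGTGG, 9 other bases, then ATTGG.
Creld2, chr15:88819396-88819645, plus strand, positions -250 to -1: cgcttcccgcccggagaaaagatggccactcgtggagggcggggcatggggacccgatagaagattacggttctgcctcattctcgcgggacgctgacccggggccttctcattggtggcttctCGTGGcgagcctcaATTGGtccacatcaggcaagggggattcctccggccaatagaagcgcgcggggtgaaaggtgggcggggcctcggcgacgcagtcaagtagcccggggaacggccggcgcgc
Hsp90b1, chr10:86705510-86705694, minus strand, positions -250 to -66: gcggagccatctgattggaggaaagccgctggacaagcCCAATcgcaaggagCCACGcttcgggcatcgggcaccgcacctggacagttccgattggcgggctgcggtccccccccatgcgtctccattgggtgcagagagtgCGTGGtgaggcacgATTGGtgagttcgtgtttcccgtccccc
Calr, chr8:84846935-84847181, minus strand, positions -250 to -4: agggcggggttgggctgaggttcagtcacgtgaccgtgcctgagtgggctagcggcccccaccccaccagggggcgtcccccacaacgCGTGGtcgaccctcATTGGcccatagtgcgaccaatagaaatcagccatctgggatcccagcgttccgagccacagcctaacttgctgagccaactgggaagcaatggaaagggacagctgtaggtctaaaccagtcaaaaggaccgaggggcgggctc
Hspa5 site, chr2:34772021-34772047, plus strand: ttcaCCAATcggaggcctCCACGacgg
Dnajb11 site, chr16:22857846-22857868, plus strand: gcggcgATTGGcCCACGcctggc
Herpud1 site, chr8:94386371-94386393, plus strand: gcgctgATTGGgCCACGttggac
The Creld2 element lies at -126 to -108, the Hspa5 element at -65 to -47 from the RefSeq start, the Calr element at -162 to -144, and the Hsp90b1 promoter holds 2, at -212 to -194 and at -107 to -89. The GENCODE start of Hspa5 lies further upstream, and all 19 bases of its element are in a GENCODE exon. The Dnajb11 element lies just downstream of the start, at 8 to 18. Of 15 other ER genes with a window among 16 looked up, Canx, Pdia6 and Dnajc3 held ERSE, Herpud1 held ERSE-II at -52 to -42, and Dnajb9 held an E-box. A match of letters is a description and does not show that a factor binds there.

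Depth ran from 25628887 to 38043491 gene counts per library. Levels below are CPM, counts scaled to the size of the library after TMM normalization. One library stood apart from its group: KO ZT16 replicate 2 was at 43.0 on the first principal component (46.7% of variance), and KO ZT16 replicates 4 and 6 at -9.74 and -11.8. Its share of mitochondrial transcripts was 22.29%, against 14.11% and 14.03% in the other KO ZT16 libraries. In both measures it lay among the WT ZT16 libraries (25.13 to 48.95 on the component and 18.7% to 22.37%), while its Nr1d2 (33.66 CPM) and Npas2 (24.69 CPM) lay with KO. On the second component (15.63% of variance) it was at -34.66. There it lay apart from WT ZT16 (5.752 to 11.26) and from KO ZT16 replicates 4 and 6 (-18 and -15.63). Some of the results that rest on it are also given without it. Arntl, counted over all its exons, had 12.28 to 15.01 CPM in KO ZT16 and 8.631 to 11.03 in WT ZT16, and 14.39 to 16.2 CPM in KO ZT4 and 13.82 to 20.01 in WT ZT4. The deleted exons are not stated, so this count does not check the labels, and every genotype difference below rests on them. The clock genes Nr1d2 (20.98 to 33.66 CPM in KO, 94.27 to 117.3 in WT over both times) and Npas2 (24.69 to 45.29 CPM in KO, 2.566 to 11 in WT) did not overlap between the genotypes. Summed proximal tubule markers ran from 9502 to 11424 CPM in KO ZT16, 10768 to 11776 in WT ZT16, 11293 to 11473 in KO ZT4 and 11481 to 12249 in WT ZT4. Of 10 pancreatic acinar markers, 5 to 8 had a count of 0 in all 3 libraries of a group.

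The stated ground for choosing the genes was their night rise in KO, not in WT. In WT kidneys 6 of 9 rose at night, Creld2, Manf, Hspa5, Sdf2l1, Pdia4 and Hsp90b1, and none fell. The choice was made with earlier results of these data known, so the WT test may not be independent of it. Over all genes 6.50% were called in that comparison, 2.87% higher and 3.63% lower (2.46% and 4.93% with upper-quartile scaling). The count was 8 of 9 without KO ZT16 replicate 2, where 33.5% of all genes were called (17.5% higher). It was 3 of 9 without WT ZT4 replicate 5 (1.34% of all genes called) or WT ZT16 replicate 1 (2.69%). Library values of WT ZT16 lay wholly above those of WT ZT4 for 8 of the 9 genes, against 21.3% of all genes tested. In KO, whose night rise chose the genes, the same 8 did not overlap (21.1% of all genes were higher without overlap), and 10.5% of all genes were called, 5.27% higher and 5.20% lower (14.4% and 8.54% with DESeq2). The median log2 fold change over the 9 genes was 0.84 between the times in KO and 0.68 in WT, against -0.01 over all genes in each. The test was edgeR's quasi-likelihood test in one fit of all 12 libraries, with Benjamini-Hochberg adjustment over all genes and a gene called at an adjusted p under 0.05.

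**Figure D1:**
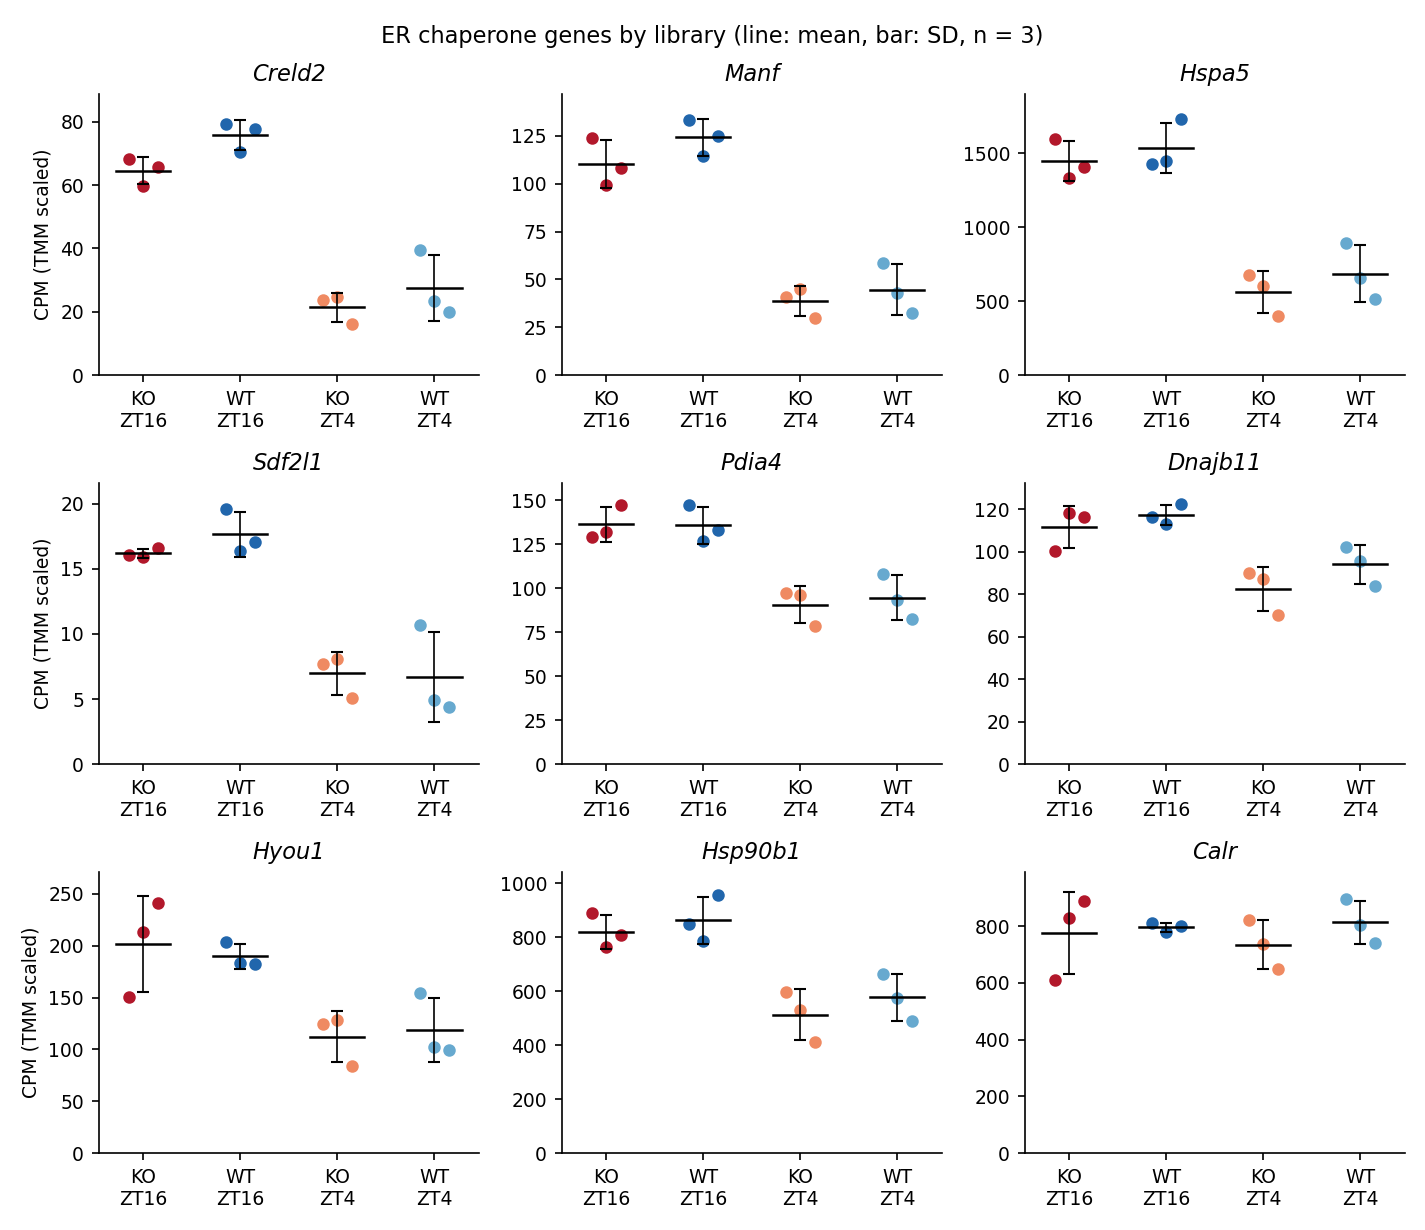
CPM of each of the 9 genes (y axis, from 0) in the 12 libraries, by group (x axis); points are libraries, lines group means and bars SD (n = 3). In all panels but that of Calr both ZT16 groups stand above the ZT4 group of the same genotype, and the genotypes overlap in most panels.

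Hspa5 encodes BiP (GRP78), the ER Hsp70 that binds unfolded proteins and holds the stress sensors inactive (chromosome 2, 34771970 to 34777547, plus strand). It had 1595, 1332 and 1406 CPM in KO ZT16 replicates 2, 4 and 6, and 676.5, 603.5 and 401.2 CPM in KO ZT4 replicates 2, 4 and 6. In WT it had 1426, 1446 and 1729 CPM at ZT16 in replicates 1, 3 and 5, and 891 (replicate 1), 653.3 and 514.3 CPM at ZT4. Every night library exceeded every day library of either genotype. The log2 fold change, ZT16 over ZT4, was 1.37 ± 0.21 (SE) in KO and 1.16 ± 0.21 in WT, the WT value with an adjusted p of 0.00972 by edgeR's quasi-likelihood test. The WT call held when each of the 12 libraries was left out (highest adjusted p 0.0492).

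Several partners work with BiP. Dnajb11 encodes ERdj3, a J-domain cochaperone that brings substrates to BiP (chromosome 16, 22857845 to 22879634, plus strand). Dnajb11 had 100.4, 118.2 and 116.3 CPM in KO ZT16 and 89.9, 86.9 and 70.3 CPM in KO ZT4, then 116.2, 113.1 and 122.4 CPM in WT ZT16 and 102.3, 95.6 and 83.9 CPM in WT ZT4. The times did not overlap in either genotype, but the change was small. Its log2 fold change was 0.44 ± 0.11 in KO and 0.32 ± 0.11 in WT, which missed the threshold in WT (edgeR adjusted p = 0.0912) and passed it without KO ZT16 replicate 2 (0.0154) or with only the 6 WT libraries fitted (0.0314).

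Sdf2l1, a partner of ERdj3, was the least abundant of the 9 (chromosome 16, 17130138 to 17132383, minus strand). It had 16.1, 15.9 and 16.6 CPM in KO ZT16, 7.71, 8.10 and 5.11 CPM in KO ZT4, 19.6, 16.3 and 17.0 CPM in WT ZT16, and 10.7, 4.96 and 4.41 CPM in WT ZT4. No day library reached any night library. The log2 fold change between the times was 1.21 ± 0.27 in KO and 1.39 ± 0.27 in WT (edgeR adjusted p = 0.0142), and the WT call was lost without WT ZT4 replicate 5 (0.0668) or WT ZT16 replicate 1 (0.0519).

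Hyou1 encodes GRP170, a large Hsp70 relative that exchanges nucleotide on BiP (chromosome 9, 44379490 to 44392369, plus strand). Hyou1 had 150.2, 213.5 and 240.9 CPM in KO ZT16, 124.4, 128.9 and 83.7 CPM in KO ZT4, 204, 183.4 and 182.5 CPM in WT ZT16, and 154.4, 102.5 and 99.1 CPM in WT ZT4. The lowest night library, KO ZT16 replicate 2, was below the highest WT day library but above all 3 KO day libraries. Its log2 fold change was 0.84 ± 0.21 in KO and 0.68 ± 0.21 in WT, where it missed the threshold (edgeR adjusted p = 0.0717) and passed it without KO ZT16 replicate 2 (0.00741) or WT ZT4 replicate 1 (0.0465), or with only the 6 WT libraries fitted (0.0139).

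Manf and Creld2 had the largest log2 fold changes between the times. Manf encodes a small ER protein that stabilises BiP complexes with clients and can be secreted (chromosome 9, 106838312 to 106891979, minus strand). It had 124, 99.1 and 108.2 CPM in KO ZT16, 41.1, 44.8 and 29.7 CPM in KO ZT4, 133.1, 114.3 and 125 CPM in WT ZT16, and 58.6, 43.0 and 32.4 CPM in WT ZT4. All 6 night libraries lay above all 6 day libraries. The log2 fold change was 1.52 ± 0.20 in KO and 1.47 ± 0.20 in WT (edgeR adjusted p = 0.00221, and at most 0.0142 with any library left out). Of its exonic bases 4.71% are shared with 4930524O07Rik on the opposite strand.

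Creld2, an ER-stress-induced protein with epidermal growth factor-like repeats, was also high at night (chromosome 15, 88819646 to 88826683, plus strand). It had 68.1, 59.7 and 65.7 CPM in KO ZT16, 23.7, 24.5 and 16.1 CPM in KO ZT4, 79.4, 70.6 and 77.9 CPM in WT ZT16, and 39.4, 23.5 and 19.9 CPM in WT ZT4. Night and day did not overlap, and WT ZT4 replicate 1 was the highest day library. Night over day was 1.59 ± 0.22 on the log2 scale in KO and 1.46 ± 0.22 in WT (edgeR adjusted p = 0.00401, and at most 0.0216 with any library left out). Across the 12 libraries, which share the time and genotype groups, log2 CPM of Creld2 and Manf had a Pearson correlation of 0.995. Both were picked for their night rise in KO, so this is a description.

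Hsp90b1 and Pdia4 had smaller fold changes. Hsp90b1 encodes GRP94, the ER Hsp90 that folds integrins and Toll-like receptors (chromosome 10, 86690209 to 86705509, minus strand). It had 888.1, 763.9 and 809.3 CPM in KO ZT16, 596.2, 528.6 and 409.7 CPM in KO ZT4, 847.5, 784.8 and 956.3 CPM in WT ZT16, and 664.8, 575.2 and 490.1 CPM in WT ZT4. The night libraries all exceeded the day libraries. Its log2 fold change was 0.68 ± 0.15 in KO and 0.58 ± 0.15 in WT (edgeR adjusted p = 0.0372). The WT call was lost when 1 of 6 libraries was dropped: WT ZT4 replicate 3 (0.0831) or 5 (0.168), WT ZT16 replicate 1 (0.0836), 3 (0.0547) or 5 (0.145) or KO ZT4 replicate 4 (0.0598). Of its exonic bases 10.3% are shared with 1810014B01Rik on the opposite strand, and without the strand setting of the counting their reads cannot be told apart.

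Pdia4 encodes ERp72, a protein disulfide isomerase that forms and reshuffles disulfide bonds (chromosome 6, 47796141 to 47813430, minus strand). It had 129.5, 132 and 147.7 CPM in KO ZT16, 97.4, 96.4 and 78.5 CPM in KO ZT4, 147.5, 126.8 and 133.3 CPM in WT ZT16, and 108.2, 93.2 and 82.8 CPM in WT ZT4. Here too the lowest night library exceeded the highest day library. Its log2 fold change was 0.59 ± 0.12 in KO and 0.52 ± 0.12 in WT (edgeR adjusted p = 0.0241). The WT call was lost without WT ZT4 replicate 3 (0.0649) or 5 (0.118), and without WT ZT16 replicate 1 (0.0803) or 5 (0.0752).

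Calr encodes calreticulin, the soluble lectin chaperone of glycoproteins and an ER calcium buffer (chromosome 8, 84841850 to 84846934, minus strand), and night libraries did not stand above day libraries. It had 611.8, 829.1 and 887.2 CPM in KO ZT16, 820.4, 736.5 and 647.6 CPM in KO ZT4, 809.6, 778.7 and 799 CPM in WT ZT16, and 895.1, 802.9 and 742.2 CPM in WT ZT4. The times overlapped in both genotypes. On the log2 scale ZT16 over ZT4 was 0.08 ± 0.14 in KO (0.22 without KO ZT16 replicate 2) and -0.03 ± 0.14 in WT (edgeR adjusted p = 0.886, and 0.05 on the log2 scale without WT ZT4 replicate 1). These values go against its selection for a night rise. Its promoter, shown above, holds an ERSE, as do those of Creld2, Hspa5 and Hsp90b1.

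**Figure D2:**
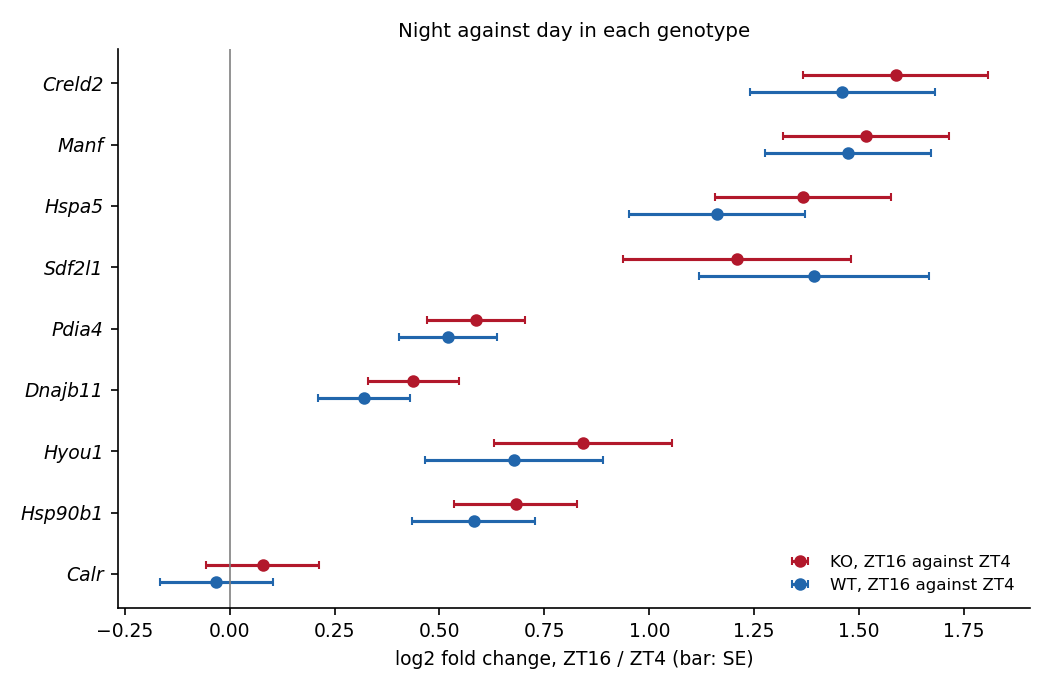
Log2 fold change of ZT16 over ZT4 (x axis, bars SE) for the 9 genes (y axis) in KO and WT. The KO values, shown as a description, run from 0.08 for Calr to 1.59 for Creld2, and the WT values from -0.03 for Calr to 1.47 for Manf.

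The 8 genes other than Calr also varied together. Across the 12 libraries the log2 CPM of each correlated with the mean of the other members at a Pearson r of 0.942 to 0.979, and Calr at 0.335. The points share time, genotype and library, and the genes were picked for a common night rise in KO. These correlations may largely reflect that choice and are a description. Within WT ZT4, replicate 1 was the highest of the group for all 9 genes and replicate 5 the lowest for all 9, and within KO ZT4 replicate 6 was the lowest for all 9. Within KO ZT16 the genes split. Replicate 2, the library that stood apart, was the highest for 4 of the 9 and the lowest for 4. Together the 9 genes took 0.302% to 0.405% of all gene counts in KO ZT16, 0.338% to 0.346% in WT ZT16, 0.2% to 0.281% in KO ZT4 and 0.216% to 0.293% in WT ZT4.

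Per length of exonic sequence, the order of levels differed between the times. In CPM per kb, Hspa5 led in KO ZT16 (342 ± 32.1, SD, n = 3) and in WT ZT16 (363 ± 40.1), ahead of Calr (269 ± 50.4 in KO ZT16 and 276 ± 5.46 in WT ZT16) with no overlap of library values. In the light Calr led, at 255 ± 30 CPM per kb in KO ZT4 and 282 ± 26.7 in WT ZT4, ahead of Hspa5 (133 ± 33.7 and 162 ± 45), again without overlap. Hsp90b1 came after these in every group, at 203 ± 15.6 CPM per kb in KO ZT16, 214 ± 21.5 in WT ZT16, 127 ± 23.4 in KO ZT4 and 143 ± 21.7 in WT ZT4. It overlapped Hspa5 in both ZT4 groups and Calr in KO ZT16. Pdia4 followed at 56.9 ± 4.12 CPM per kb in KO ZT16, 56.6 ± 4.42 in WT ZT16, 37.8 ± 4.43 in KO ZT4 and 39.5 ± 5.32 in WT ZT4. Creld2, Dnajb11, Manf and Hyou1 lay between 10.9 and 55.6 CPM per kb, with many overlaps between neighbours, and Sdf2l1 was the lowest in each group (14.6, 15.9, 6.29 and 6.04 CPM per kb in KO ZT16, WT ZT16, KO ZT4 and WT ZT4).

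Other library features moved with the time of day, and their part in the night rise was not tested. The mitochondrial share, given above for KO ZT16 and WT ZT16, was 12.6% to 12.82% in KO ZT4 and 16.27% to 17.96% in WT ZT4. KO ZT16 replicates 4 and 6, with the lower shares, had mean log2 CPM over the 9 genes of 7.54 and 7.64, against 7.52 in replicate 2. Without replicate 2 the KO median over the 9 genes was 1.01. Summed CPM of 4 thick ascending limb markers was 7163 to 8550 in KO ZT16 and 5983 to 6238 in KO ZT4, and 7693 to 9507 in WT ZT16 and 6748 to 7612 in WT ZT4. Of these 4 markers, 2 were called higher between the times in KO and 0 in WT. The 7 B cell and plasma cell markers summed to 20.9 to 52.5 CPM in KO ZT16, 21.8 to 65.8 in WT ZT16, 23.7 to 28.2 in KO ZT4 and 18.1 to 32.9 in WT ZT4, so the times overlapped. The 4 podocyte markers summed to 162 to 225 CPM in KO ZT16 and 261 to 274 in KO ZT4, and 162 to 203 in WT ZT16 and 210 to 257 in WT ZT4. All 4 had negative log2 fold changes in each genotype, 1 of them called in each. Of 4 fibroblast and pericyte markers, 3 were called lower at night in KO and 1 in WT, with sums of 126 to 192 CPM in KO ZT16, 167 to 178 in KO ZT4, 162 to 184 in WT ZT16 and 162 to 193 in WT ZT4. The 4 collecting duct principal cell markers summed to 258 to 313 CPM in KO ZT16 and 250 to 265 in KO ZT4, and 303 to 308 in WT ZT16 and 213 to 253 in WT ZT4, with 1 called higher in KO and 0 in WT. Over all genes 5.27% were called higher and 5.20% lower at night in KO, and 2.87% and 3.63% in WT.

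The genotypes overlapped for most of the 9 genes. The log2 fold change of KO over WT had a median of -0.07 at ZT16, from -0.23 for Creld2 to 0.09 for Hyou1, and of -0.17 at ZT4, from -0.36 for Creld2 to 0.06 for Sdf2l1. The ZT4 values rest on single libraries. Without WT ZT4 replicate 1 the ZT4 median and Creld2 were both at -0.01 and Sdf2l1 at 0.58, and the median was -0.06 without KO ZT4 replicate 6 and -0.26 without WT ZT4 replicate 5. Sdf2l1 was at -0.17 without WT ZT4 replicate 5. The ZT16 median was -0.14 without WT ZT16 replicate 3, -0.13 without KO ZT16 replicate 2 and -0.04 without WT ZT16 replicate 5. The SE of single genes was 0.11 to 0.26 at ZT16 and 0.11 to 0.28 at ZT4. At ZT16 8 of 9 genes overlapped between KO and WT libraries, and Creld2, with a highest KO value of 68.1 CPM against a lowest WT value of 70.6 CPM, was lower without overlap (7.95% of all genes were lower and 7.92% higher in this way). At ZT4 all 9 overlapped, where 18.4% of all genes were lower and 19.3% higher without overlap. The KO libraries were used in choosing the genes, so these differences carry no test. The difference between the night changes, KO minus WT, had a median of 0.11 on the log2 scale, from -0.18 for Sdf2l1 to 0.21 for Hspa5, and the SE of each gene (0.15 to 0.38) exceeded its value. This median ran from -0.05 to 0.20 with a library left out, so its sign was not stable.

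**Figure D3:**
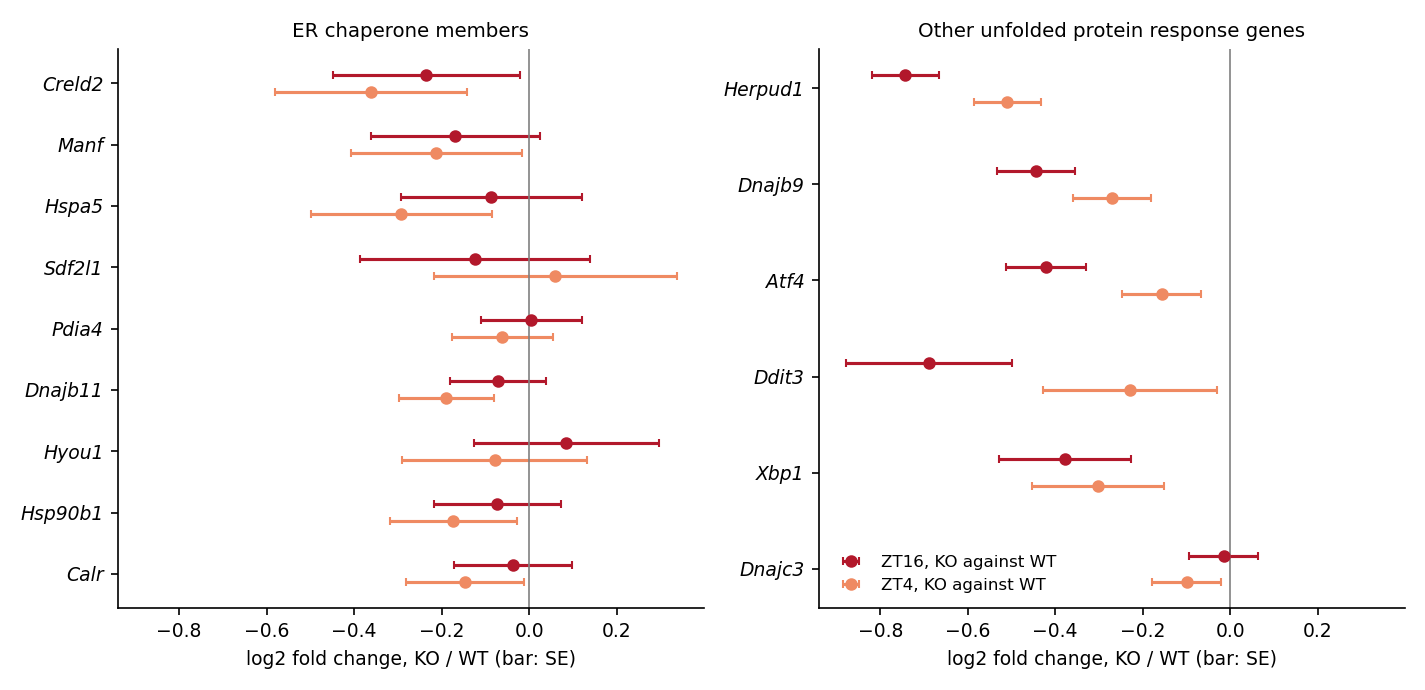
Log2 fold change of KO over WT (x axis, bars SE) at ZT16 and ZT4 for the 9 genes (left panel) and 6 other unfolded protein response genes (right panel). Of the 16 other ER genes looked up, these 6 are the ones called higher at night in WT. Their values below 0 at ZT16 may partly reflect that choice. Over all 14 sensor and transcription factor genes the ZT16 median was 0.09, with 8 positive. At ZT16 the 9 genes lie between -0.23 and 0.09. Herpud1 lies at -0.74, Dnajb9 at -0.44 and Atf4 at -0.42, and these were called. Ddit3 (-0.69), Xbp1 (-0.38) and Dnajc3 (-0.01) were not called.

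Other genes of the pathway were read from 7 lists of 168 tested genes that exclude the 9. The lists were chosen with earlier results of these data known, so their shares are descriptions and may partly reflect that choice. Between the times, 33 of the 168 rose and 1 fell in KO (19.6% higher, against 5.27% of all genes), and 28 rose and none fell in WT (16.7%, against 2.87%). At an unadjusted p under 0.05, 75 were higher and 8 lower in KO (49.4% of the 168, against 36.3% of all genes) and 63 higher and 5 lower in WT (40.5%, against 29.3%). DESeq2 called 43 higher and 1 lower in WT, where it called 13.3% of all genes. Between the genotypes, 1 rose and 9 fell at ZT16 (5.36% lower), where 4.03% of all genes were called, 2.07% higher and 1.96% lower. At ZT4 2 rose and 1 fell, where 3.29% of all genes were called, 1.63% higher and 1.66% lower. For the interaction, where 0.0186% of all genes were called (0.00619% higher, 0.0124% lower), edgeR called none of the 168 and voom 0. At an unadjusted p under 0.05, 5 were lower and 0 higher (2.98%, against 3.34% of all genes), and DESeq2 called 2 (0.111% of all genes). These counts depend on single libraries. Without KO ZT16 replicate 2, 16 were higher and 53 lower at ZT16 (14.7% and 16.5% of all genes). At ZT4 7 were higher and 25 lower (7.82% and 7.48%), and between the times in WT 75 higher and 7 lower (17.5% and 15.9%). In either direction 31.2%, 15.3% and 33.5% of all genes were then called in those comparisons. The KO time count was 14, 11 and 9 without KO ZT4 replicate 2, 4 and 6 (2.5%, 1.11% and 1.3% of all genes called), and 63 without KO ZT16 replicate 6 (22.2%). The WT time count was 11 without WT ZT4 replicate 5 (1.34%) and 14 without WT ZT16 replicate 5 (1.59%). At ZT16 the count was 3 without WT ZT16 replicate 3 (2.57%) or KO ZT16 replicate 6 (2.35%), 4 without WT ZT16 replicate 5 (2.32%), and 6 without KO ZT4 replicate 2 (3.21%) or 4 (3.17%). For the interaction it was 1 without KO ZT16 replicate 4 (0.0305%). When only the 6 libraries of a comparison were fitted, the KO time calls of the genes named below were lost except those of Herpud1, Hspa8, Chordc1 and Dnaja1, and their ZT16 genotype calls were lost except that of Herpud1. Values given below in parentheses after a gene are log2 fold changes ± SE.

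**Figure D4:**
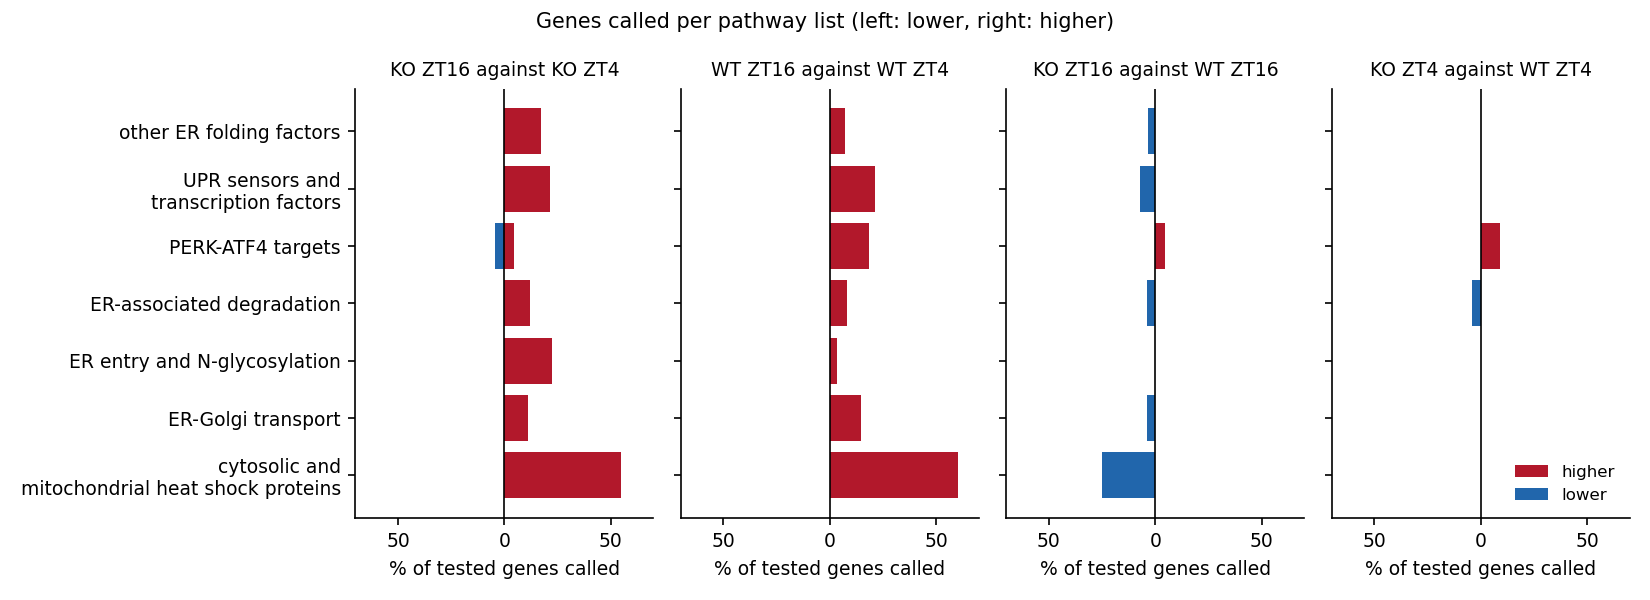
Share of tested genes in each of 7 pathway lists (y axis) called higher (right of 0) or lower (left of 0) in 4 comparisons. Heat shock proteins have the highest shares, with 11 of 20 genes higher at night in KO, 12 of 20 in WT, and 5 of 20 lower in KO than in WT at ZT16.

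The sensors themselves did not pass the test between the times in the fit of all 12 libraries. Under the alternatives listed at the end, Ern1 passed as lower at night in 3 of 21 in KO and 2 of 21 in WT. Atf6 was at a log2 fold change of 0.10 ± 0.09 in KO and -0.05 ± 0.09 in WT, Ern1 at -0.50 ± 0.18 and -0.44 ± 0.18, and Eif2ak3 at -0.06 ± 0.10 and 0.05 ± 0.10, in the same order (edgeR adjusted p from 0.0733 to 0.741). Of 14 sensor and transcription factor genes, 3 rose at night in each genotype, Xbp1, Atf4 and Ddit3 (5.27% of all genes did in KO and 2.87% in WT). Xbp1, the target of IRE1, had 274.6, 217.8 and 223.7 CPM in KO ZT16 and 125.9, 155.9 and 130.2 in KO ZT4, against 294.5, 262.1 and 373.6 CPM in WT ZT16 and 197.1, 160.6 and 150.3 in WT ZT4. The times did not overlap in either genotype, and the log2 fold changes were 0.80 ± 0.15 in KO (edgeR adjusted p = 0.0134, lost without KO ZT4 replicate 2 at 0.0538 or 6 at 0.0605) and 0.87 ± 0.15 in WT (0.00821, lost without WT ZT4 replicate 5 at 0.0517). Ddit3, which encodes the pro-apoptotic factor CHOP, had 17.9, 23.7 and 18.9 CPM in KO ZT16 and 8.61, 7.01 and 10.2 CPM in KO ZT4, against 24.8, 39.0 and 33.6 CPM in WT ZT16 and 8.36, 12.1 and 9.83 CPM in WT ZT4. On the log2 scale it rose by 1.23 ± 0.20 in KO (edgeR adjusted p = 0.00742, and 0.0536 with only the 6 KO libraries fitted) and by 1.69 ± 0.20 in WT (0.0008). At ZT16 KO over WT was -0.69 ± 0.19 for Ddit3 (edgeR adjusted p = 0.0704, passing at 0.023 without KO ZT16 replicate 2 and at 0.0328 without WT ZT16 replicate 1). For Xbp1 it was -0.38 ± 0.15 (0.233, passing at 0.0177 without KO ZT16 replicate 2).

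Atf4 was higher at night and lower in KO than in WT at night. It had 106.3, 112.9 and 93.0 CPM in KO ZT16, 126.8, 146.3 and 145.1 CPM in WT ZT16, 78.0, 79.8 and 83.6 CPM in KO ZT4, and 89.9, 94.6 and 84.7 CPM in WT ZT4. The genotypes did not overlap at either time. At ZT16 its log2 fold change of KO over WT was -0.42 ± 0.09 (edgeR adjusted p = 0.0216, lost at 0.0799 without WT ZT16 replicate 3, at 0.0824 without WT ZT16 replicate 5 and at 0.0933 without KO ZT16 replicate 6, and at 0.217 with only the 6 ZT16 libraries fitted). Its night rise was 0.37 ± 0.09 in KO (edgeR adjusted p = 0.0299, lost when any of the 3 KO ZT4 libraries or KO ZT16 replicate 4 was dropped, at 0.0504 to 0.108) and 0.64 ± 0.09 in WT (0.00308). Among 22 tested genes of the PERK and ATF4 branch, Psat1, of serine synthesis, rose by 0.59 ± 0.13 and Sesn2, a stress-induced inhibitor of mTORC1, fell by 0.70 at night in KO, both on the log2 scale. In WT Chac1, which degrades glutathione, Atf3, Cebpb and Cebpg rose. Leaving out 1 library ended each of these 6 calls for at least 3 of the 12 libraries, from 3 for Psat1 to 8 for Chac1. Stc2, a secreted glycoprotein, had 3.76, 3.35 and 3.58 CPM in KO ZT16 and 2.10, 1.88 and 1.46 CPM in WT ZT16, and 6.26, 4.44 and 5.58 CPM in KO ZT4 and 2.69, 1.77 and 2.73 CPM in WT ZT4. It was the gene of the lists that was higher in KO at ZT16 (0.97 ± 0.20, edgeR adjusted p = 0.017, lost when WT ZT16 replicate 3, WT ZT16 replicate 5 or KO ZT16 replicate 6 was dropped, at most 0.0897), and at ZT4 its log2 fold change was 1.17 ± 0.19 (0.00499), and Cebpb was also higher (0.98 ± 0.21, 0.0285, lost when 1 of 4 libraries was dropped, replicate 1 or 5 of WT ZT4 and replicate 4 or 6 of KO ZT4, at most 0.121).

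Herpud1, an ER membrane protein that organises ER-associated degradation, differed by time and by genotype. It had 285.3, 282.2 and 298.6 CPM in KO ZT16, 476.4, 489.5 and 483.4 CPM in WT ZT16, 172.9, 160.2 and 187.5 CPM in KO ZT4, and 247.8, 256.5 and 236.8 CPM in WT ZT4. No group overlapped another. KO over WT was -0.74 ± 0.08 on the log2 scale at ZT16 (edgeR adjusted p = 0.000119) and -0.51 ± 0.08 at ZT4 (0.00282). ZT16 over ZT4 was 0.73 ± 0.08 in KO (edgeR adjusted p = 0.00081) and 0.97 ± 0.08 in WT (5.87e-05), and all 4 calls held with each library left out. Herpud1 carries an ERSE-II in its promoter, shown above, as Dnajb11 does. Of the other degradation genes, Rnf139 and Ufd1 rose at night in KO and Selenos in WT. Leaving out 1 library ended these calls for 8, 9 and 6 of the 12 libraries, in that order.

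Dnajb9, which encodes ERdj4, a J-domain partner of BiP and a known XBP1 target, had 75.1, 69.5 and 62.9 CPM in KO ZT16, 95.3, 96.1 and 91.1 CPM in WT ZT16, 47.5, 44.0 and 42.1 CPM in KO ZT4, and 56.1, 56.3 and 48.9 CPM in WT ZT4. KO was below WT at both times without overlap. At ZT16 KO over WT was -0.44 ± 0.09 (edgeR adjusted p = 0.0138, lost without WT ZT16 replicate 3 at 0.0509 or KO ZT16 replicate 4 at 0.0505 or 6 at 0.0683), and at ZT4 -0.27 ± 0.09 (0.137, and 0.03 without KO ZT16 replicate 2). Its night rise was 0.63 ± 0.09 in KO (edgeR adjusted p = 0.00442) and 0.81 ± 0.09 in WT (0.000533). With only the 6 libraries of a comparison the edgeR adjusted p was 0.0591 for the KO night rise and 0.134 for the genotype difference at ZT16, both lost, and 0.0349 at ZT4, where the difference passed.

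Of 29 other folding factors, 5 rose at night in KO and 2 in WT, with Dnajb9 among them in each. Over all genes 5.27% were called higher in KO and 2.87% in WT. In KO Dnajc3, the BiP cochaperone p58IPK (0.39 ± 0.08), Hspa13, an ER-associated Hsp70 (0.56 ± 0.11), Pdia6 (0.50 ± 0.14) and Erp29 (0.30 ± 0.08) rose at night, and in WT Dnajc3 (0.30 ± 0.08). The edgeR adjusted p was 0.0161 to 0.0417. Leaving out 1 library ended the KO calls of Dnajc3 and Hspa13 for 2 of the 12 libraries and that of Pdia6 for 6. For 10 of the 12 it ended the calls of Erp29 in KO and Dnajc3 in WT. Several relatives of the 9 genes were not called. The log2 fold change between the times was 0.21 ± 0.12 in KO and 0.17 ± 0.12 in WT for Creld1, -0.45 ± 0.22 and -0.28 ± 0.23 for the Manf relative Cdnf, and 0.61 ± 0.22 and 0.37 ± 0.22 for Sdf2. In KO ZT16 replicate 2 Sdf2 had 119.6 CPM, against 61.97 and 59.56 in replicates 4 and 6. Hspa13 had 77.23 CPM there, against 62.41 and 56.38. With a library left out the KO value of Sdf2 was as low as 0.199. Calnexin, the membrane-bound relative of calreticulin encoded by Canx, was at 0.31 ± 0.10 in KO and 0.24 ± 0.10 in WT (edgeR adjusted p = 0.0549 and 0.125). The disulfide isomerase genes Pdia3 (0.11 ± 0.10 in KO, 0.10 ± 0.10 in WT) and P4hb (0.31 ± 0.09 and 0.20 ± 0.09) were not called either. Of 21 alternatives, P4hb passed in 6 in KO and 1 in WT, Canx in 3 and 1, and Sdf2 in 3 and 2.

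Genes that bring proteins into and out of the ER were read against the 5.27% of all genes called higher in KO and 2.87% in WT. Of 31 tested genes of ER entry and N-glycosylation, 7 rose at night in KO, including the signal peptidase subunit Sec11a (0.55 ± 0.11), the oligosaccharyltransferase subunit Ostc (0.94 ± 0.22) and the translocon gene Sec61a1 (0.31 ± 0.07). In WT 1 of 31 rose, Sec11a (0.56 ± 0.11), a share near that of all genes. Of 27 ER-Golgi transport genes, Sec23b (0.45 ± 0.08), Sec13 and Arcn1 rose in KO and Kdelr2 (0.39 ± 0.08), Sec13, Mcfd2 and Sec23b in WT, with edgeR adjusted p from 0.0104 to 0.0351. Mcfd2, a cargo receptor subunit, was lower in KO than in WT at ZT16 (-0.30 ± 0.07, edgeR adjusted p = 0.0316, lost when 1 of 7 libraries was dropped, at most 0.107). Leaving out 1 library ended each named call of these 2 lists between the times for at least 1 of the 12 libraries. The number was lowest for Sec23b in KO (1), and was 7 for Arcn1 in KO and 8 for Sec23b in WT.

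Cytosolic and mitochondrial heat shock genes had the largest share of night rises among the 7 lists, 11 of 20 in KO and 12 of 20 in WT, and 5 were lower in KO than in WT at ZT16. Hspa8, the constitutive cytosolic Hsp70, had 987.2, 757.1 and 685.5 CPM in KO ZT16 and 356.2, 353.5 and 320.4 CPM in KO ZT4, and rose by 1.24 ± 0.14 on the log2 scale (edgeR adjusted p = 0.00128), as did Chordc1, an Hsp90 cochaperone (1.08 ± 0.13, 0.0025). Hspa1b, a stress-induced cytosolic Hsp70, had 20.8, 43.4 and 22.2 CPM in KO ZT16 and 74.7, 64.2 and 74.1 CPM in WT ZT16, with KO over WT at -1.30 ± 0.23 on the log2 scale (edgeR adjusted p = 0.00609). Its near-identical neighbour Hspa1a can share reads with it, so the values of both are uncertain. Dnaja1, a cochaperone of Hspa8, had 148.8, 133.7 and 126.4 CPM in KO ZT16 and 175.3, 191.3 and 224.9 CPM in WT ZT16 (-0.53 ± 0.10, edgeR adjusted p = 0.00798). The genotypes did not overlap for either gene at ZT16, and both calls held with each library left out. Both were lost when only the 6 ZT16 libraries were fitted (adjusted p 0.0958 for Hspa1b and 0.135 for Dnaja1 by edgeR). Dnajb1 (-0.55 ± 0.13), Hspa1a (-1.20 ± 0.30) and Hsph1 (-0.57 ± 0.14) were also lower. Leaving out 1 library ended these calls for 6, 8 and 10 of the 12 libraries, in that order.

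The genes whose log2 CPM over the 12 libraries was most like the mean of the 9, among 11056 others with a mean of at least 5 CPM, were Fndc3a (Pearson r = 0.971), Stip1 (0.955), Ints10 (0.954), Tubb4b (0.952), Tardbp (0.945), Dnajc3 (0.943), Fkbp4 (0.943), Cdk2ap2 (0.942), Sec61a1 (0.942) and Idh3a (0.936). Stip1 is a cytosolic Hsp70 and Hsp90 organiser, Fkbp4 an Hsp90 cochaperone, and Dnajc3 and Sec61a1 act at the ER. Of the 50 most similar genes, 11 were in the 7 pathway lists, which made up 153 of the 11056. The 9 genes were picked for a night rise in KO libraries that are among these 12. The lists were chosen with earlier results known. This count may largely reflect those choices, and is a description and not a test of enrichment. Of 22 other tested genes with an ERSE or ERSE-II in their window, 6 rose between the times in KO (5.27% of all genes did) and 3 in WT (2.87% of all genes did). They were Herpud1, Dnajc3 and Acnat2 in each, and Pdia6, Xlr3a and Xlr3b in KO. Of the 22, 15 had a positive log2 fold change in KO (median 0.288) and 14 in WT (median 0.112).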

How the data were processed

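Whole-kidney RNA, 500 ng per library, had been made into TruSeq stranded mRNA libraries, per the labels' protocols. Per the submitters' processing notes, reads were trimmed with cutadapt 1.2.1, aligned to GRCm38 with TopHat2 2.0.9 and counted with HTSeq 0.5.4p3. The deposited values are whole-number read counts per gene, not normalized, and the strand setting and the annotation release were not given in the sources used here. HTSeq's lines for unassigned reads (no feature 3.50% to 5.96% of reads) were left out of library sizes. GENCODE M21 named 37607 of 38924 gene IDs and gave positions and lengths.

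Counts were filtered with filterByExpr, normalized by TMM, then fitted in R 4.3.3 with edgeR 4.0.16 (quasi-likelihood, 4 groups, 12 libraries, 8 residual degrees of freedom, Benjamini-Hochberg over 16150 genes). SE is that of the fitted log2 fold change. Log2 CPM used a prior count of 2. Motifs were searched with Python 3.11.15. The pipeline was tested on simulated data. Alternatives changed the tool (DESeq2 1.42.0, or voom in limma 3.58.1), the scaling (RLE, upper quartile), the filter (none, or mean CPM of 5 or more), the threshold (0.01) and the libraries (the 6 of a comparison alone, or 1 left out), or added a replicate block. A planned comparison of protein ends was not run.

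The members and lists were chosen with earlier results of these data known. Named genes were the 9 members, 16 set ER genes, up to 3 called genes of smallest adjusted p per list and comparison, clock genes, and the 10 genes most like the members. Erp29, Chac1, Hspa1a, Hsph1 and the WT value of Sec23b were added after their values were seen.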

Additional observations from a re-analysis of the deposited data

How the results depend on the processing

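The medians over the 9 genes moved by less than the spread between replicates under the alternatives run, but the ZT4 genotype median ran from -0.264 to -0.00745 with a library left out and that of the interaction changed sign. The count of 6 of 9 rising in WT was 3 at an adjusted p under 0.01 and 3 to 8 with a library left out. Pathway counts moved more. DESeq2 called 71 for KO over the times, 44 for WT over the times, 14 at ZT4 and 2 for the interaction, where it called 22.9%, 13.3%, 6.57% and 0.111% of all genes. At an adjusted p under 0.01 the counts were 9 in KO, 14 in WT and 3 at ZT16. Fits of only the 6 libraries compared gave 4 in KO, 63 in WT, 1 at ZT16 and 34 at ZT4, where 0.227%, 22.8%, 1.28% and 18.2% of all genes were called, and a mean of at least 5 CPM gave 1 at ZT4. With a library left out the counts ran from 9 to 63 in KO and from 11 to 82 in WT, from 3 to 69 at ZT16 and from 2 to 32 at ZT4, and from 0 to 1 for the interaction. Same-numbered libraries of the 2 times showed no shared deviation (correlations from -0.266 to 0.0542, against -0.186 to 0.224 for other numbers). With so few libraries per group this cannot exclude that the numbers pair them. With the replicate block 10 pathway genes were called in KO and 14 in WT, and 4 members in WT, without Hsp90b1 (0.0828) and Pdia4 (0.0681).

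Some values near 0, none called, changed sign with a library left out. Among the members, given as descriptions, these were KO over WT at ZT4 for Manf (-0.398 to 0.0382), Sdf2l1 (-0.171 to 0.585), Pdia4 (-0.149 to 0.0483) and Hyou1 (-0.193 to 0.16), at ZT16 for Pdia4 (-0.0559 to 0.0618), Hyou1 (-0.0633 to 0.247) and Calr (-0.144 to 0.0977), Calr over the times in KO (-0.0283 to 0.218), and the interaction for all but Dnajb11 and Calr. Over the times in WT, Calr ran from -0.0927 to 0.0499 (highest without WT ZT4 replicate 1), Atf6 from -0.133 to 0.0135 and Eif2ak3 from -0.00836 to 0.0956 (both crossed 0 without WT ZT16 replicate 3). Eif2ak3 in KO ran from -0.137 to 0.0218 (without KO ZT16 replicate 2), Dnajc3 in KO over WT at ZT16 from -0.0579 to 0.0258 (without WT ZT16 replicate 5) and Arntl in KO over WT at ZT4 from -0.188 to 0.0964 (without WT ZT4 replicate 1). The cause was not tested.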
